A study of Drosophila melanogaster with 2 samples.

Results

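The genes examined here encode subunits of the 26S proteasome of *Drosophila melanogaster*. They were taken from the Ensembl annotation as protein-coding genes whose symbol begins with Rpn or Rpt and a digit, or with Prosalpha or Prosbeta. The rule used symbols and no measured value, and this family was chosen for description with earlier results of these data known. It found 48 of the 13945 protein-coding genes on the 6 main chromosome arms. Of these, 32 are called the constitutive subunit genes here: 6 Rpt, 12 Rpn, 7 Prosalpha and 7 Prosbeta genes. The other 16 carry a T or an R after the subunit number and are kept apart as paralogues: Rpt3R, Rpt4R, Rpt6R, Rpn12R, Rpn13R, Prosalpha1R, Prosalpha3T, Prosalpha4T1, Prosalpha4T2, Prosalpha6T, Prosbeta2R1, Prosbeta2R2, Prosbeta4R1, Prosbeta4R2, Prosbeta5R1 and Prosbeta5R2. The T stands for testis, where several of these genes are known to be expressed. No expression was measured in this series. The lid subunit gene Sem1 has a symbol outside the rule, so it is not among the 48 and is given with other genes of the system.

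Chromatin immunoprecipitation and sequencing (ChIP-seq) mapped where a GFP-tagged form of hermaphrodite (*her*), a zinc-finger protein that acts in sex determination, was found on chromatin. The 2 biological replicates formed 1 group: whole embryos, male and female pooled, aged 0 to 24 hours, of a transgenic line that stably expresses *her* with GFP at its C-terminus. Chromatin was sonicated to fragments of 200 to 800 bp and the tagged protein was recovered through its GFP with an antibody; the replicates share 1 control. No second condition, no untagged line and no separated cell type was analysed here, so each value is an average over all cells of the embryo. Strong binding in few cells and weak binding in many cannot be told apart in such samples. The depth of each replicate is unknown.

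The 26S proteasome is the protease that degrades proteins tagged with ubiquitin. Its core particle is a barrel of alpha and beta rings with the proteolytic sites inside, on the beta subunits Prosbeta1, Prosbeta2 and Prosbeta5. A regulatory particle caps the barrel: its base carries the ring of Rpt ATPases, which unfold substrates, and its lid of Rpn subunits removes the ubiquitin chains. All cells need the complex, and its subunits are made in matched amounts.

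Promoters of the constitutive subunit genes often held the DNA replication-related element (DRE), TATCGATA, a palindrome known as the binding sequence of the transcription factor Dref. Promoters were taken as 300 bases, from 250 before to 50 after the 5′-most annotated start, and searched on both strands in the RefSeq genome sequence of the dm6 build. TATCGATA was present in 12 of the 32 constitutive promoters (37.5%), in 0 of the 16 paralogue promoters and in 9.36% of all protein-coding promoters. When the window before every annotated start was searched, Rpt3R was added, and the shares were 12 of 32, 1 of 16 and 10.2%. A match is a description of the letters and not a measured binding site. The sites shown here lie in 7 of the promoters that hold one, each with 11 bases on either side, the element in capitals, 5′ to 3′ on the strand of the gene. The sites of Rpn12 (chr3L:16582801-16582830, plus strand), Rpn3 (chr2L:19051582-19051611, plus strand) and Rpt5 (chr3R:23752819-23752848, plus strand) belong to genes with a *her* region that passed the threshold for reproducibility. The sites of Prosalpha6 (chr2L:10221324-10221353, plus strand), Prosbeta2 (chr3L:14999930-14999959, plus strand), Prosbeta6 (chr3L:16610444-16610473, minus strand) and Rpn7 (chr3R:22462033-22462062, minus strand) belong to genes without one.
Rpn12: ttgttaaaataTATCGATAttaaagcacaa
Rpn3: tgttatcggagTATCGATAtcgaaaaggct
Rpt5: atcgctgtcacTATCGATAagcgccggcga
Prosalpha6: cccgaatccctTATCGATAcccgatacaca
Prosbeta2: ccatgaatataTATCGATAcaatatcgatt
Prosbeta6: gtatgtataccTATCGATAacgtttaagca
Rpn7: gcggtataattTATCGATAattttggggtc

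Nearly all constitutive subunit genes had a listed *her* region near a start site, mostly of middling strength, and few of the paralogues had one. Each region carries a signal value, the strength given to it by the peak caller, on a scale that the sources do not state, and a summit, the position of its highest signal. The thresholded list holds the 3930 regions deposited as passing the irreproducible discovery rate (IDR) procedure, which compares the ranks of regions between replicates. Their signal ran from 90.8 to 9479. They were the 3930 strongest pooled regions, so a single one need not rank alike in both replicates. The strongest region of Prosalpha3, a gene with a thresholded summit, ranked 8747 in replicate 1 and 1586 in replicate 2. The relaxed lists hold 30000 regions each, for replicate 1, replicate 2 and the pooled replicates, and reach down to weak regions: the lowest pooled signal was 21.1. The pooled list was deposited as peaks and background for IDR. A region found only in a relaxed list is therefore not shown to be bound. A gene was counted when it had a summit no more than 1 kb from an annotated transcription start site (TSS). A thresholded summit was present at 12 of 32 constitutive subunit genes (37.5%), at 0 of 16 paralogues and at 23.3% of all protein-coding genes. A relaxed pooled summit was present at 31 of 32 constitutive subunit genes (96.9%), at 2 of 16 paralogues (12.5%) and at 62.1% of all genes. No test of these shares was made, because the genes of a complex are not replicates of a condition.

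Both replicates gave the same account. Replicate 1 had a relaxed summit at 31 constitutive subunit genes, at 2 paralogues and at 63.2% of all protein-coding genes. Replicate 2 had one at 31 constitutive subunit genes, at 0 paralogues and at 62.9% of all genes. In both replicates at once, a summit was present at 31 of 32 constitutive subunit genes, 0 of 16 paralogues and 57.3% of all genes. The constitutive genes exceeded the background in the relaxed lists, and the 1 gene missed was the same in each list. Among genes that had a pooled region at all, the thresholded share was 12 of 31 constitutive subunit genes (38.7%), 0 of 2 paralogues and 37.6% of all such genes. The constitutive share was therefore near the background once a region was present.

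**Figure D1:**
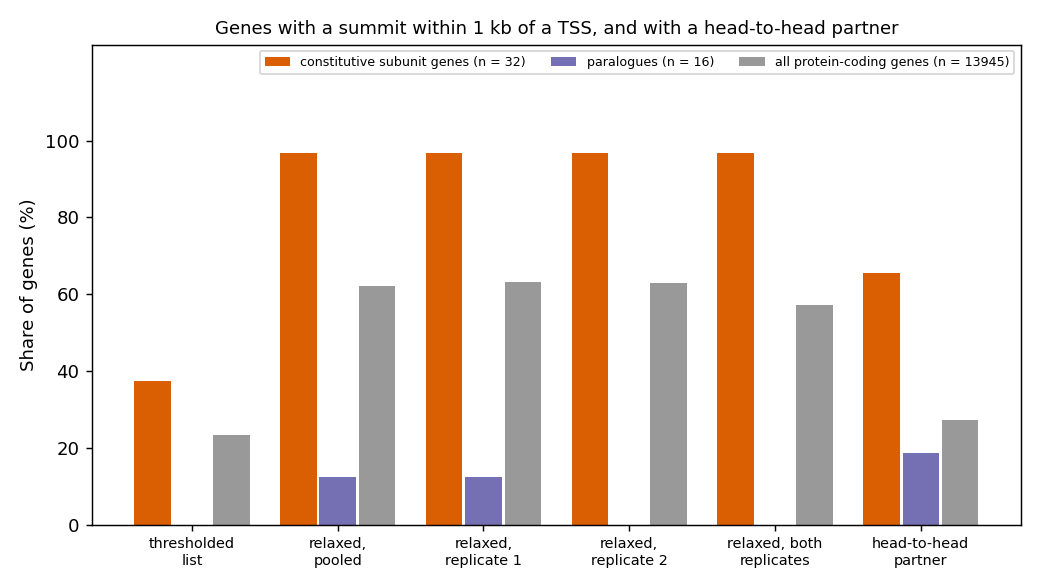
Share of genes (percent, vertical axis) with a summit within 1 kb of a TSS in the thresholded, pooled, replicate 1, replicate 2 and both-replicate lists, and share with a head-to-head partner (last group; a gene that starts within 500 bp upstream on the opposite strand), for constitutive subunit genes, paralogues and all protein-coding genes. The constitutive genes reach 96.9% in every relaxed list, against 12.5% or less of the paralogues and 57.3% to 63.2% of all genes.

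The signal at constitutive subunit genes did not stand out among genes with a region. The strongest thresholded signal per gene had a median of 128 over the 12 constitutive genes (range 94.4 to 221), and a median of 146 over all 3254 genes with a thresholded summit. These 12 ranked between 837 and 3695 of the 3930 regions. In the pooled relaxed list the median was 65.4 over the 31 constitutive genes (range 34.9 to 221), and the 2 paralogues had 21.3 and 22.8, against a median of 69.5 over the 8660 protein-coding genes with a region. Both paralogue values lay below the lowest constitutive value. Because the thresholded list was the 3930 strongest pooled regions, the pooled and thresholded signals of a region are the same number, and the replicates are given beside it.

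**Figure D2:**
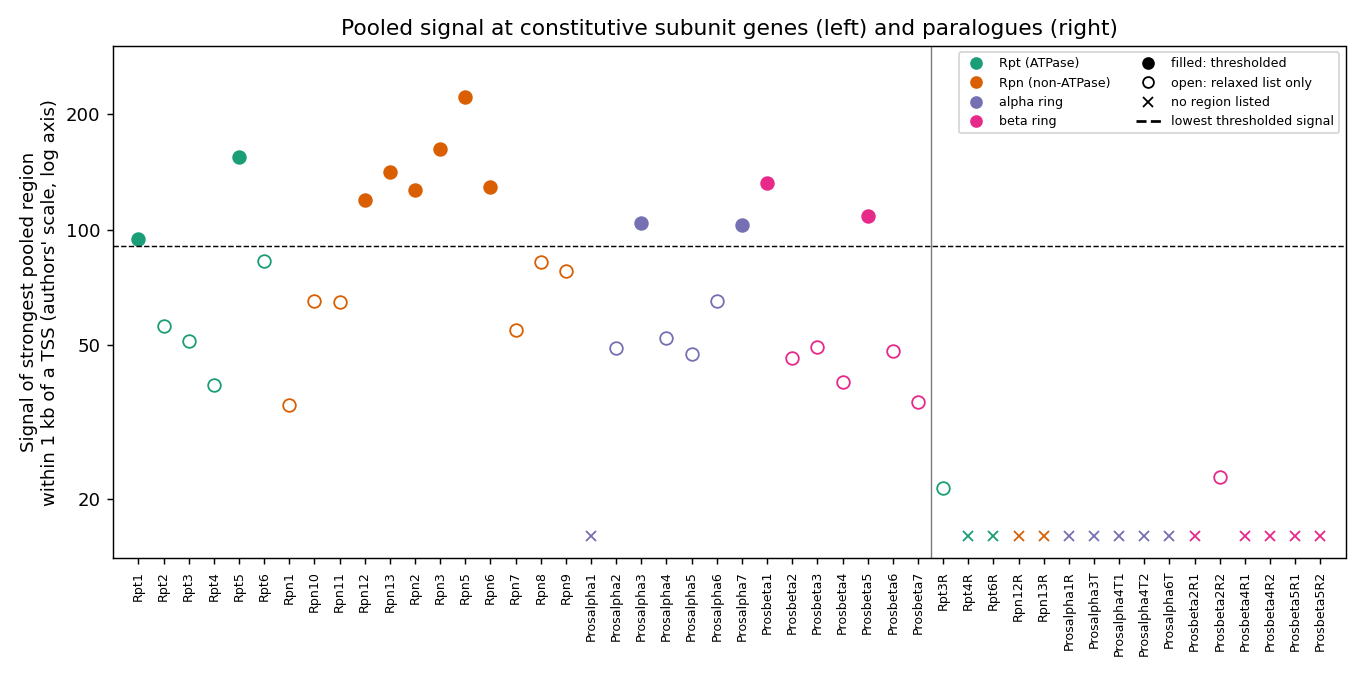
Pooled signal value (log axis) of the strongest region within 1 kb of a TSS for each of the 48 genes, ordered as Rpt, Rpn, alpha and beta genes, constitutive genes left and paralogues right; filled points have a thresholded summit and crosses mark genes with no region and have no value; the dashed line is the lowest thresholded signal. The constitutive points lie between 34.9 and 221 in all but 1 gene, and the paralogues hold 2 points, at 21.3 and 22.8.

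The Rpt genes encode the AAA ATPases that form a ring in the base, unfold the substrate and thread it into the barrel. Relaxed summits were found at 6 of 6 in both replicates, against 57.3% of all protein-coding genes. Thresholded summits were found at 2 (33.3%), Rpt5 and Rpt1, against 23.3% of all genes and 37.6% of those with a pooled region. At Rpt5 (FBgn0028684, arm 3R) the summit lay 27 bp upstream of the TSS, in a region at 23752791 to 23752910, with a signal of 155 in the pooled data, 64.3 in replicate 1 and 87.8 in replicate 2. Rpt1 (FBgn0028687, arm 2R, region 7653752 to 7654155) had its summit at the TSS itself, with 94.4 in the pooled data, 49.7 in replicate 1 and 46.5 in replicate 2. Rpt1 was thus the constitutive gene just inside the threshold, and Rpt6 the one just outside. Rpt6, on X, had 82.9 in the pooled data, 34.6 in replicate 1 and 44.9 in replicate 2, with its summit 9 bp downstream of the TSS. Rpt2, Rpt3 and Rpt4 were lower, at 56.3, 51.2 and 39.4 in the pooled data. The summit of Rpt4 lay 503 bp upstream of its TSS, and 445 bp from that of its divergent neighbour mldr.

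The lid holds the Rpn genes Rpn3, Rpn5, Rpn6, Rpn7, Rpn8, Rpn9, Rpn11 and Rpn12, most of them scaffold subunits that surround the deubiquitinating enzyme Rpn11. Thresholded summits were present at 4 of these 8, against 23.3% of all protein-coding genes, and relaxed summits at all 8 in both replicates, against 57.3%. Rpn5 (FBgn0028690, arm 3R, region 5789011 to 5789414) had the highest value of all the subunit genes, 221 in the pooled data, 120 in replicate 1 and 102 in replicate 2. Its summit lay 280 bp upstream of the Rpn5 TSS and 139 bp from a TSS of Hat1, a histone acetyltransferase gene on the opposite strand. A second thresholded summit, of signal 134, lay 73 bp upstream of Rpn5 and was also nearer to Hat1. The region with the highest signal therefore belonged to a shared promoter and cannot be assigned to Rpn5 alone.

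Rpn3 (FBgn0261396, arm 2L, region 19051738 to 19051891) had 162 in the pooled data, 79.1 in replicate 1 and 83.8 in replicate 2, with its summit 44 bp downstream of the TSS. Rpn6 (FBgn0028689, arm 2R, region 14752167 to 14752570) had 129 in the pooled data, 62.2 in replicate 1 and 67.7 in replicate 2. Its summit lay 98 bp upstream of the nearer of its 2 TSSs, an internal one. The summit was thus inside the gene, which spans 14750166 to 14752910 on the minus strand. Rpn3 and Rpn6 were the lid genes whose replicates were closest among those with a thresholded summit. Rpn12 (FBgn0028693, arm 3L, region 16582751 to 16583154) had 119.5 in the pooled data, 74.9 in replicate 1 and 43.6 in replicate 2, with its summit 75 bp upstream. Its replicates differed 1.72-fold. Rpn8, which pairs with Rpn11, had 82.3 in the pooled data, 47.4 in replicate 1 and 41.2 in replicate 2, and Rpn9 had 78.2, 43.1 and 31.6. Both fell just below the threshold, and the summit of Rpn8 was nearer to a neighbour, 95 bp from the kinase gene Slik. That summit lay inside Rpn8, 526 bp upstream of an internal TSS, the nearer of its 2. The strongest pooled region within 1 kb of the 5′-most TSS of Rpn8 had 45.9, with its summit 288 bp upstream. Rpn11 itself had 64.9 and Rpn7 54.8 in the pooled data.

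The other Rpn genes are Rpn1 and Rpn2, the large scaffold subunits of the base, and the ubiquitin receptors Rpn10 and Rpn13. Of these 4, Rpn2 and Rpn13 had a thresholded summit, against 23.3% of all protein-coding genes. Rpn13 (FBgn0033886, arm 2R, region 13960506 to 13960909) had 141 in the pooled data, 78.7 in replicate 1 and 62.1 in replicate 2. Its summit lay 304 bp upstream, the farthest of the 12, and 33 bp from a TSS of CtsL1, a cathepsin L gene. Rpn2 (FBgn0028692, arm 3R, region 29153281 to 29153684) had 127 in the pooled data, 65.5 in replicate 1 and 64.6 in replicate 2, with its summit 41 bp upstream, on the side of Slbp, the histone stem-loop binding protein gene. The receptor gene Rpn10 had 65.4 in the pooled data, and Rpn1 had 34.9, the lowest value of any constitutive subunit gene with a region.

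The alpha rings close the ends of the barrel and control entry. Thresholded summits were present at 2 of the 7 Prosalpha genes (28.6%), against 23.3% of all protein-coding genes, and relaxed summits in both replicates at 6 of 7, against 57.3%. Prosalpha3 (FBgn0261394, arm 2R, region 20994686 to 20995089) had 104 in the pooled data, 31.0 in replicate 1 and 73.6 in replicate 2, with its summit 12 bp upstream of the TSS. With the strongest region of each replicate taken per gene, this was the widest difference among the 31 genes, replicate 1 being 0.421 times replicate 2. Prosalpha7 (FBgn0023175, arm 2R, region 9847658 to 9848061) had 103 in the pooled data, 57.3 in replicate 1 and 42.7 in replicate 2, with its summit 24 bp upstream. The other alpha genes with a region, Prosalpha6, Prosalpha4, Prosalpha2 and Prosalpha5, had pooled signals of 65.1, 52.2, 49.2 and 47.5.

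Prosalpha1 (FBgn0263121, arm 2R, 7827303 to 7828678, minus strand) was the constitutive subunit gene without a region. The nearest summit to its TSS lay 2360 bp away in the pooled list, 2887 bp in replicate 1 and 3461 bp in replicate 2. Its paralogue Prosalpha1R (arm 2R, 7830413 to 7831771) follows it on the arm. All 1966 of the 36-base words within 1 kb of the Prosalpha1 TSS occurred elsewhere in the assembly, among them words shared with Prosalpha1R, for which the share was also 100%. In the other 46 genes the share of repeated words was 4.47% or lower, with Rpn3 the highest. The sources used here give neither read length nor the treatment of reads that map to several places, and the part of this duplication in the missing region was not tested. Prosalpha1 and Prosalpha1R therefore stand apart from the rest, and their lack of a region is given as a property of the deposited lists.

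The beta rings carry the proteolytic sites. Thresholded summits were present at 2 of the 7 Prosbeta genes (28.6%), against 23.3% of all protein-coding genes, and relaxed summits in both replicates at 7 of 7, against 57.3%. Among the catalytic subunits, thresholded summits were present at the genes of Prosbeta1, the caspase-like subunit, and Prosbeta5, the chymotrypsin-like subunit, but not at Prosbeta2, the trypsin-like subunit. Prosbeta1 (FBgn0010590, arm 2R, region 16014661 to 16015064) had 132 in the pooled data, 75.8 in replicate 1 and 57.5 in replicate 2. Its summit lay 76 bp upstream and 45 bp from a TSS of Rrp42, an RNA exosome gene. Prosbeta5 (FBgn0029134, arm 2R, region 10819778 to 10820181) had 108 in the pooled data, 61.1 in replicate 1 and 50.8 in replicate 2, with its summit 2 bp downstream of the TSS. Prosbeta2 had 46.3 in the pooled data, 24.8 in replicate 1 and 19.5 in replicate 2, and its summit lay 23 bp from the mitochondrial ribosomal protein gene mRpL39. The structural subunit genes Prosbeta3, Prosbeta6, Prosbeta4 and Prosbeta7 had pooled signals of 49.6, 48.2, 40.3 and 35.7. All 4 lay below the median of 51.2 over the 19 constitutive genes that had a region under the threshold.

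Replicate signals at the 31 constitutive genes lay within 1.5-fold of each other at 23 and farther apart at 8. The ratio of replicate 1 to replicate 2 had a median of 1.07 (range 0.421 to 1.94), against 1.14 over the 7995 protein-coding genes with a summit in both. Replicate 1 was higher at 18 genes and replicate 2 at 13. Neither this split nor that at 1.5-fold was counted over all genes. The strongest regions of a gene need not be the same site in both replicates. At 1 site of Rpt3, 386 bp upstream in replicate 1 and 393 bp in replicate 2, replicate 1 had 33.0 and replicate 2 had 13.3, and at the second region of Rpn5 they had 102 and 41.7, both farther apart than the strongest regions of Prosalpha3. The 8 genes farthest apart were Rpn12, Rpt2, Rpt3, Rpt4, Prosalpha2, Prosalpha3, Prosbeta4 and Prosbeta6. The strongest summits of the replicates lay within 200 bp of each other at 23 of 31 genes (74.2%), and at 71.9% of all genes. As a description, without a test, Spearman's rho between the replicates was 0.757 across the 31 genes and 0.820 across all 7995. Across the 19 genes under the threshold rho was 0.288, so the order of the weaker genes among themselves was poorly kept between replicates. These genes share libraries and the control, and they are not independent replicates.

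**Figure D3:**
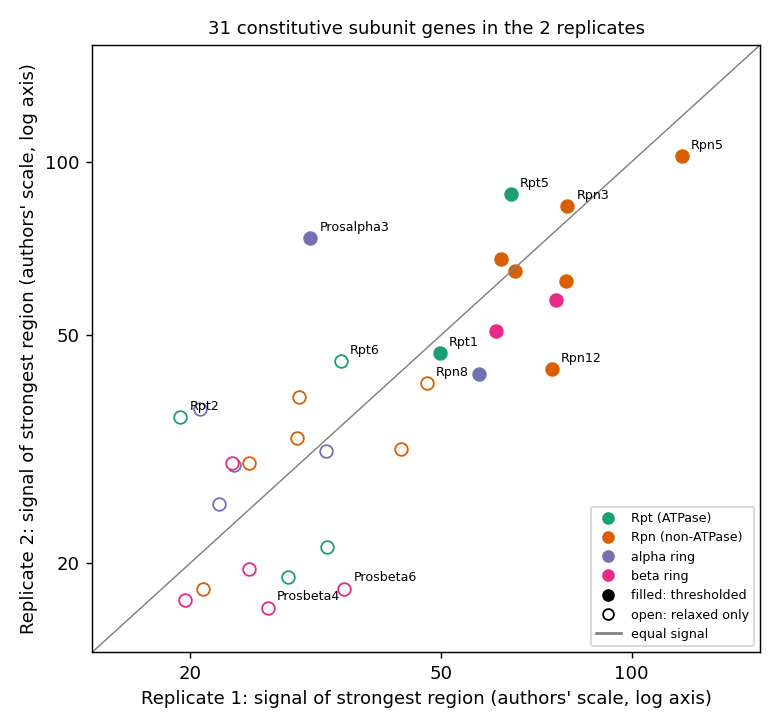
Signal value of the strongest region of each of the 31 constitutive subunit genes in replicate 1 (horizontal, log axis) against replicate 2 (vertical, log axis), filled where a thresholded summit is present; the line marks equal values. Rpn5 is highest in both replicates, at 120 and 102, and Prosalpha3 lies farthest above the line, at 31.0 and 73.6.

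Most summits lay close to the start site. Relative to the nearest TSS of the gene, the strongest thresholded summits of the 12 constitutive genes lay from 304 bp upstream to 44 bp downstream. Of these, 9 were upstream, 1 at the TSS and 2 downstream. Their median distance was 42.5 bp, against 115 bp over all 3254 genes with a thresholded summit, and 10 of 12 (83.3%) lay within 100 bp, against 46.9%. In the pooled list the median distance was 98 bp over the 31 constitutive genes and 160 bp over all genes, and 16 of 31 (51.6%) lay within 100 bp, against 39.5%. The share upstream, 64.5% of constitutive and 64.4% of all genes, was nearly the same.

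**Figure D4:**
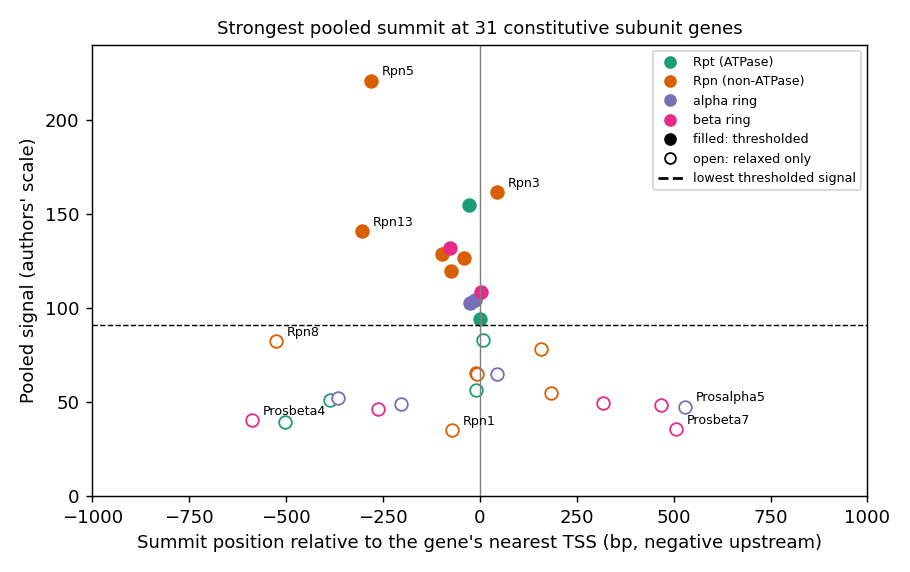
Position of the strongest pooled summit relative to the nearest TSS of the gene (bp, horizontal, negative upstream) and its signal value (vertical, linear axis) for the 31 constitutive subunit genes, filled where a thresholded summit is present; the dashed line is the lowest thresholded signal. The 12 filled points lie between 304 bp upstream and 44 bp downstream, and the open points reach 588 bp upstream and 530 bp downstream.

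Many of these promoters are shared with a neighbour. A protein-coding gene on the opposite strand started within 500 bp upstream, head to head, at 21 of 32 constitutive subunit genes (65.6%), at 3 of 16 paralogues (18.8%) and at 27.4% of all protein-coding genes. Among head-to-head genes a thresholded summit was present at 9 of 21 constitutive subunit genes (42.9%), 0 of 3 paralogues and 38.6% of all. Among the remaining genes it was present at 3 of 11 constitutive subunit genes (27.3%), 0 of 13 paralogues and 17.6% of all. The arrangement thus moved with the call in all genes, and its part in the counts was not tested. At 4 of the 12 genes with a thresholded summit (33.3%), Rpn5, Rpn13, Rpt5 and Prosbeta1, the strongest summit was nearer to a TSS of another gene, against 29.4% of all bound genes. Rpt5 was 27 bp away while RanBP3, a Ran-binding protein gene, was 15 bp away. At 7 of the 19 genes below the threshold (36.8%) the same held, among them Rpn8, Rpt3, Rpt4, Prosalpha4, Prosbeta2 and Prosbeta4. Over the whole pooled list it held at 11 of 31 constitutive genes (35.5%), against 25.8% of all genes with a pooled region. The share over all genes below the threshold alone was not counted.

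The paralogues lacked regions in nearly every list. No summit was found in either replicate at 1 of 32 constitutive subunit genes, at 14 of 16 paralogues (87.5%) and at 31.2% of all protein-coding genes. Rpt3R had a signal of 21.3 in the pooled data and 17.9 in replicate 1, and no region within 1 kb in replicate 2, where the nearest summit lay 1475 bp away. Prosbeta2R2 had 22.8 in the pooled data and 13.0 in replicate 1, and its nearest summit in replicate 2 lay 1566 bp away. Both pooled values were close to the end of the list, at ranks 29688 and 27481 of 30000, and the Prosbeta2R2 summit lay 17 bp from a TSS of its head-to-head neighbour CG1116.

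For the 14 other paralogues the nearest pooled summit lay between 1126 bp (Rpn12R) and 125179 bp (Prosbeta5R2) from the TSS. Prosbeta4R1 and Prosbeta4R2, which lie close together on arm 2L, were 64532 and 66880 bp from the nearest pooled summit. The constitutive Prosbeta5 had its summit 2 bp from the TSS, while the nearest summit to Prosbeta5R1 was 45339 bp away. For Rpt6 the distance was 9 bp and for Rpt6R 3779 bp, and for Rpn12 it was 75 bp and for Rpn12R 1126 bp. Each paralogue of a gene with a thresholded summit (Rpn12R, Rpn13R, Prosalpha3T, Prosbeta5R1 and Prosbeta5R2) was itself without a pooled region.

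Of 6 sequence motifs listed for the promoters, the DRE was the one most often held by constitutive genes. It was present at 6 of the 12 with a thresholded summit (50%) and 6 of the 20 without one (30%). The same split was not counted over all protein-coding genes. GGTCACAC, part of a core promoter motif of housekeeping genes, was present in 5 of 32 constitutive promoters (15.6%), 0 of 16 paralogue promoters and 7.70% of all. TGACNNNGC, the core of the antioxidant response element bound by Cnc with a small Maf protein, was present in 5 of 32 constitutive promoters, 1 of 16 paralogue promoters and 8.63% of all. Prosalpha2, Prosbeta3, Rpn1 and Rpn7 held both, and in 2 of these 4 the matches overlap. GGTCACAC and TGACNNNGC were each present at 0 of the 12 with a thresholded summit and 5 of the 20 without one (25%). The 2 motifs share 4 of these 5 genes, and this split was not counted over all protein-coding genes either. The E-box CAGCTG was present in 1 of 32 constitutive promoters, 1 of 16 paralogue promoters and 17.7% of all. CACGTG was present in none of the 48 and in 4.20% of all. GAGAGAG was present in 0 of 32 constitutive promoters, in 2 of 16 paralogue promoters, Prosbeta2R2 and Rpt4R, and in 5.87% of all. With the window before every annotated start, CAGCTG was present in 3 of 32 constitutive promoters (9.38%), 1 of 16 paralogue promoters and 22.3% of all. In that search GGTCACAC was present in 7 of 32, 0 of 16 and 8.71%, TGACNNNGC in 6 of 32, 1 of 16 and 11.2%, CACGTG in 0 of 32, 1 of 16 and 5.30%, and GAGAGAG in 0 of 32, 2 of 16 and 9.08%.

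**Figure D5:**
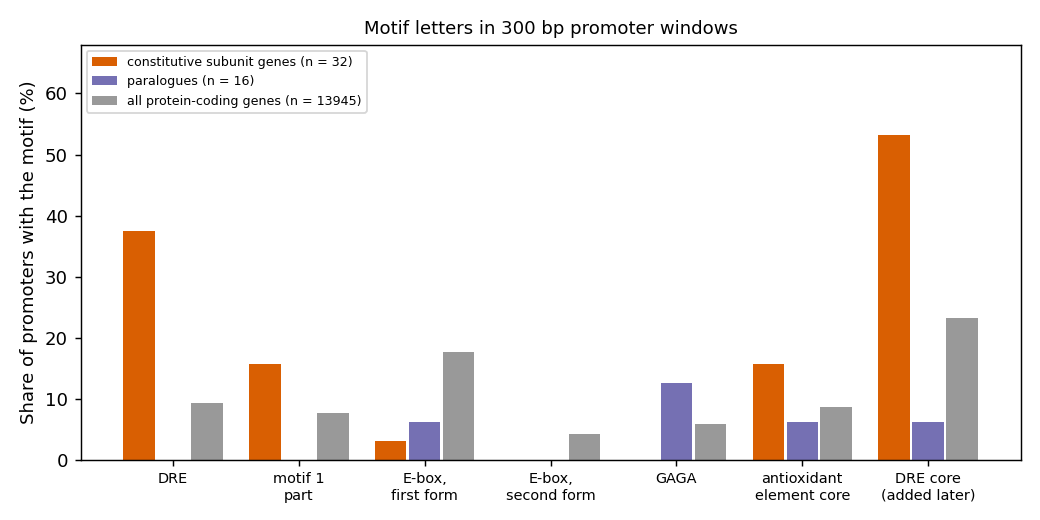
Share of promoters (percent, vertical axis; 300 bases around the 5′-most start, both strands) that hold each motif, for constitutive subunit genes, paralogues and all protein-coding genes. CAGCTG is the first form of the E-box and CACGTG the second. TATCGATA (DRE) is present in 37.5% of constitutive promoters, in no paralogue promoter and in 9.36% of all; ATCGAT (DRE core), which lies inside TATCGATA, was added after the promoters had been seen.

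The DREs were not all at the summits. In the window of 101 bp centred on the summit, TATCGATA was present at 3 of the 12 strongest thresholded summits of constitutive genes (25%), those of Prosbeta1, Rpn3 and Rpt5, and at 3.64% of all 3930 thresholded summits. The 3930 were taken at any distance from a TSS, and the 12 within 1 kb of one. The share over summits within 1 kb of a TSS alone was not counted. At Rpt5 the element began 46 bp upstream of the TSS and its centre lay 16 bp from the summit. At Rpn12 it began 216 bp upstream and lay 138 bp from the summit, and at Rpn3 the promoter element lay 238 bp away, with a further one inside the window. Of the 6 genes under the threshold with the element, 5 are given: the distances were 56 bp for Prosalpha6, 178 bp for Rpn7, 256 bp for Prosbeta2, 508 bp for Prosbeta6 and 618 bp for Prosalpha5. As at Rpn3, the summit window of Prosbeta2 held a further one. Of the 12 promoters with the element, the one in the promoter lay within 50 bp of the summit in 2, those of Rpt5 and Prosbeta1.

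Other genes of the ubiquitin and proteasome system were taken from a list of 23 regulators, assembly factors, shuttles and ubiquitin genes. A pooled region was present at 23 of 23, against 62.1% of all protein-coding genes. A thresholded summit was present at 11 (47.8%), against 23.3% of all protein-coding genes and 37.6% of those with a pooled region. Hrd3, a subunit of the ubiquitin ligase of the endoplasmic reticulum, had the highest signal, 333, though its summit was nearer to PTPMT1. Uch-L5, a deubiquitinase that binds Rpn13, had 225 with its summit 11 bp upstream of the TSS. The genes of Cnc, the fly relative of the Nrf factors that control proteasome genes, and of its partner maf-S had 176 with a thresholded summit for *cnc* and 86.0 without one for *maf-S*. Keap1, the inhibitor of Cnc, had 218 with its summit 789 bp upstream and nearer to *kuk*, and Pngl, a peptide N-glycanase gene, had 164.

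Among the segregase genes, which encode the machinery that pulls ubiquitinated proteins out of complexes, the ATPase TER94 had a thresholded signal of 94.4 and its cofactors p47 and Ufd1 had 156 and 146, while the cofactor Npl4 had 60.1 without a thresholded summit. The polyubiquitin gene Ubi-p63E had 166, and Ubi-p5E 79.5 without a thresholded summit. The remaining thresholded genes were *ntc* at 201, an F-box gene whose summit was nearer to IntS10, and REG, the gene of a proteasome activator, at 91.2 with its summit nearer to *sno*. Below the threshold were Sem1, the smallest lid subunit, at 36.4, and Pomp, the assembly chaperone of the core particle, at 83.5. PI31 had 67.4, Ubqn 83.3, *rngo* 73.8, Uba1, the ubiquitin-activating enzyme, 68.5, Usp14 40.5, Rad23 33.9 and *sip3* 27.9. Rad23 and *sip3* were the listed genes without a region in replicate 1, and all 23 had one in replicate 2.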

How the data were processed

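The dm6 lists of the 2 samples were used, and dm3 lists were not used here. The authors deposited relaxed regions per replicate and for the pooled replicates, and the regions that passed IDR. Per the deposited notes, each replicate was called against the shared control. No source used here names the aligner, the caller or a version. The deposited signal value is a score on an unstated scale, and the deposited −log10 q-value reaches its highest value, 4.13, at 6689 pooled regions, among them the strongest regions of 6 constitutive genes under the threshold. Regions were therefore ranked by score. Their depth is unknown, so no interval was given.

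Genes came from Ensembl release 115 and sequence from the RefSeq assembly, both of the dm6 build. All 93930 summits lay within the arms. Each gene took its strongest summit within 1 kb of any TSS. A neighbouring gene is not reported here. All members were named, with values in every list for those with a thresholded summit. Positions are 1-based, and offsets follow the strand of the gene. Scripts used Python 3.11.15, NumPy 2.4.6, SciPy 1.17.1 and Matplotlib 3.10.9, and the assignment of summits to genes was tested on simulated data. With 1 group no test was made. The rule for members reads symbols alone, but this family, the gene list and the motifs were chosen with earlier results of these data known, and ATCGAT was added after the promoters had been seen. Alternatives used each replicate alone, shorter or longer lists and other distances to the TSS.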

Additional observations from a re-analysis of the deposited data

How the results depend on the processing

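The count of 12 constitutive subunit genes with a thresholded summit ranged from 10 to 11 when 1 replicate was left out, 10 with replicate 1 alone and 11 with replicate 2 alone. It fell to 4 with the 1965 strongest regions (12.5%, against 12.8% of all genes): Rpn13, Rpn3, Rpn5 and Rpt5. Other settings gave 8 (nearest TSS only, 25% against 17.2% of all genes) to 18 (2 times as many pooled regions, 56.3% against 37.9%). The paralogue count was 0 under all of these, with a range of 0 to 0 without a replicate. The 31 constitutive genes with a region in both replicates became 20 at 200 bp (62.5%, against 36.2% of all genes), and 31 to 31 with 1 replicate alone. The paralogue count of 0 became 3 at 2000 bp (Prosbeta2R2, Rpn12R and Rpt3R), and 0 to 2 with 1 replicate alone; the cause was not tested. No paired analysis was possible because all samples form 1 group and no value comes from a test. Depth limits are unknown, since read counts are not given.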

Other observations

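ATCGAT, the inner letters of the DRE, was searched after the promoters had been seen, so its counts are a description. It was present in 17 of 32 constitutive promoters (53.1%), in 1 of 16 paralogue promoters (6.25%, Prosbeta2R1) and in 23.3% of all protein-coding promoters. With the window before every annotated start, the shares were 20 of 32 (62.5%), 2 of 16 (12.5%) and 26.3%. Within the 101 bp windows ATCGAT was present at 6 of the 12 strongest thresholded summits of constitutive genes (50%), and at 8.78% of all thresholded summits. The latter were taken at any distance from a TSS, so the sets differ in location. Rpn5, Rpn6, Prosalpha7 and Prosbeta5 have a thresholded summit. They held ATCGAT neither in the promoter window of the 5′-most start nor in the summit window. With every annotated start searched, the count over the 12 constitutive genes with a thresholded summit rose from 8 to 9. The gene added was Rpn6, through its other start. Prosbeta2R1, which holds it, has no region. As chosen examples, Rpn2, Rpn12 and Rpt6 hold ATCGAT close to the start site, and Prosalpha6T, a paralogue without a region, does not. Their 150 bases before the TSS, free of annotated exons, are shown 5′ to 3′ on the plus strand from the RefSeq sequence of the dm6 build, with ATCGAT in capitals, for Rpn2 (chr3R:29153374-29153523), Rpn12 (chr3L:16582878-16583027), Rpt6 (chrX:21315902-21316051) and Prosalpha6T (chr2L:13231889-13232038).
Rpn2: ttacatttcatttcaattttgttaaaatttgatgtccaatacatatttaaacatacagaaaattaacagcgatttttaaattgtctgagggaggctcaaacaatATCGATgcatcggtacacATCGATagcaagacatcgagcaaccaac
Rpn12: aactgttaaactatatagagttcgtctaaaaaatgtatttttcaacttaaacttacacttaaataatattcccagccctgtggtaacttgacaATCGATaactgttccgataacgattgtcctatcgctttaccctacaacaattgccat
Rpt6: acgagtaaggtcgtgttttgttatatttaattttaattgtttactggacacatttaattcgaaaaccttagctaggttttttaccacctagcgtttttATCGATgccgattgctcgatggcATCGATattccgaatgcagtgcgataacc
Prosalpha6T: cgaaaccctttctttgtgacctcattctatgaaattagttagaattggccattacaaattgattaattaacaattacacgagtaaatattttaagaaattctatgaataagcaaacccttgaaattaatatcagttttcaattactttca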
